A study of Homo sapiens with 6 samples.

Results

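The genes described here are those whose official symbol is ZNF followed by digits only, the plain serial names given to human zinc finger genes. They were taken from probe sets annotated to 1 gene symbol, which gave 212 such genes on 278 probe sets. Genes with a probe set above the median of all values (52.5) on 3 or more of the 6 arrays were kept, which left 122 of the 212 (57.5%), among 7035 genes kept in all. Of the 122, 114 were above that level on all 6 arrays and 8 on 3 to 5. All samples came from PC3, an established line of prostate cancer cells first taken from a bone metastasis, kept in RPMI medium. Cells of the PSMA group carried the pLNCX-PSMA plasmid, which encodes the FOLH1 protein, also known as prostate-specific membrane antigen, and were profiled on 3 arrays (replicates 4 to 6). Cells of the control group received the empty vector per the protocol, are called wild type in their titles and vector only in their source label, and were profiled on 3 arrays (replicates 1 to 3). Both were transfected with FuGENE 6 and selected with puromycin per the labels' protocols, and the labels do not say whether the selected cells were a pool or 1 clone, nor whether replicates were separate cultures. A p-value here therefore speaks of the spread among these 6 arrays alone, and that spread may be technical.

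Most ZNF proteins carry tandem C2H2 fingers, each a short fold held by a zinc ion that contacts a few bases of DNA, so that a row of fingers reads a longer site. Many also carry a KRAB domain, which recruits the corepressor TRIM28 and through it histone methylation by SETDB1, and KRAB zinc fingers are best known for silencing transposable elements. The genes arose by local duplication and lie in clusters, the greatest number of them on chromosome 19. Of 477 protein-coding genes with such a name in the RefSeq annotation, 240 lie on chromosome 19, as did 45 of the 122 tested here.

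The signal on the FOLH1 probe sets went against the labels. The probe set annotated to FOLH1 alone averaged 28.1 ± 3.80 on arrays labelled PSMA and 60.5 ± 0.914 on arrays labelled control (SD, n = 3 each; log2 difference -1.11, limma adjusted p = 9.6e-06). The brightest probe set shared with the near-identical gene FOLH1B averaged 12.5 ± 3.44 on arrays labelled PSMA and 480.8 ± 65.3 on arrays labelled control (SD, n = 3 each). Whether these probe sets bind the plasmid's insert was not tested. Every direction below follows the labels as deposited, so that "higher", "rose", "lower" and "fell" speak of the arrays labelled PSMA relative to the arrays labelled control. Values are linear GCRMA intensities in arbitrary units, and differences are on the log2 scale.

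Over all probe sets, Pearson's r was 0.998 for each of 6 pairs of arrays within a group and 0.987 to 0.988 for 9 pairs across groups. All 5 epithelial carcinoma markers (KRT8, KRT18, KRT19, EPCAM and CDH1) passed the filter, and their summed intensity was 13233 to 13716 on arrays labelled PSMA and 16514 to 17012 on arrays labelled control. None of the 5 leucocyte markers on the array passed it (summed intensity 58.9 to 63.2 on arrays labelled PSMA and 53.2 to 61.0 on arrays labelled control), nor did any of 3 androgen-dependent luminal markers (63.2 to 73.5 on arrays labelled PSMA and 65.4 to 67.7 on arrays labelled control). Of 8 fibroblast and endothelial markers 2 passed, COL1A1 and PECAM1, with a summed intensity over the 8 of 238 to 256 on arrays labelled PSMA and 249 to 268 on arrays labelled control. The 28S rRNA control spot (middle portion) averaged 675 ± 4.29 on arrays labelled PSMA and 1498 ± 63.1 on arrays labelled control (SD, n = 3 each), and the 3'/5' ratio of GAPDH was 1.36 ± 0.0872 on arrays labelled PSMA and 1.30 ± 0.0668 on arrays labelled control. The same ratio for ACTB was 4.44 ± 0.757 on arrays labelled PSMA and 4.61 ± 0.658 on arrays labelled control (SD, n = 3 each). The part of the 28S gap, of these ratios and of the marker levels in the results below was not tested.

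Zinc finger genes shifted in both directions by small amounts. Of the 122 tested, 32 were higher, 33 were lower and 57 did not pass the limma threshold (adjusted p under 0.05 over all 7035 genes). That is 53.3% called, beside 63.6% of all tested genes, with 26.2% higher beside 30.1% and 27.0% lower beside 33.5%. The median difference was -0.04 over the members and -0.01 over all tested genes, and the members' median was -0.02 without control replicate 1, PSMA replicate 5 or PSMA replicate 6. The median size of the 65 called differences was 0.29, against 0.34 for all called genes. Only 3 members passed with a difference of 2-fold or more (ZNF32, ZNF91 and ZNF165), beside 4.41% of all tested genes. The 1 higher member stands beside 1.89% of all tested genes and the 2 lower members beside 2.52%. Tested against a minimum change of 1.5-fold in place of 0 (limma treat), 1 member was higher and 3 were lower, beside 7.48% of all tested genes called. At a size of 0.5 or more there were 14, beside 18.4% of all tested genes. The 2 groups had no overlapping values in 66 members (32 higher and 34 lower), 54.1% beside 69.5% of all tested genes (32.9% higher and 36.6% lower). At each of these thresholds the share of members lay below that of all tested genes, and this difference was not tested. Groups overlapped in 5 called members, while 6 members without overlap did not pass.

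**Figure D1:**
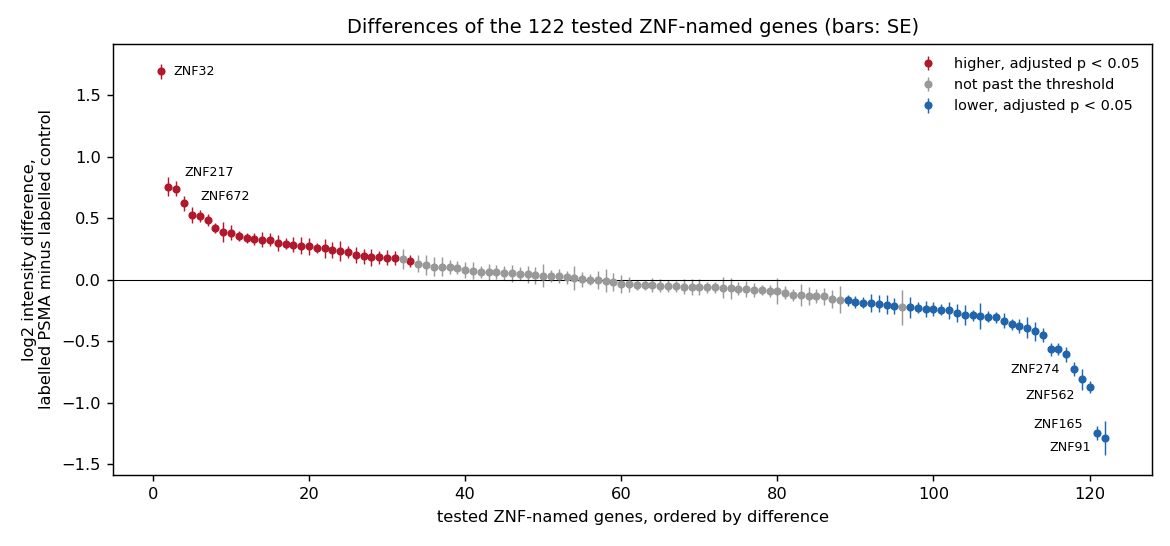
Log2 difference in intensity (arrays labelled PSMA minus arrays labelled control) of the 122 tested ZNF-named genes, ordered from highest to lowest, with SE bars from limma, n = 3 arrays per group. ZNF32 stands apart at 1.70, ZNF165 and ZNF91 lie lowest at -1.25 and -1.29, and the 57 grey genes did not pass the threshold.

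The members were dim. Their median mean intensity was 125, against 281 over all tested genes, and 62 of the 122 fell in the dimmest of 4 equal brightness classes of tested genes (28.5 to 127). In that class 27 of 62 members were called (43.5%), beside 60.1% of all its genes. In the next class 25 of 39 were called (64.1%, beside 64.1%), and in the one above it 10 of 15 (66.7%, beside 67.0%). Only 6 members were in the brightest class, and 3 of them were called (50%), beside 63.3% of all its genes. The median SE of a difference was 0.06 over the members and 0.05 over all tested genes.

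Of the 3 brightest members, 2 did not pass and 1 was lower. ZNF706, a small zinc finger protein, averaged 2929 ± 97.2 on arrays labelled PSMA and 3104 ± 22.1 on arrays labelled control (SD, n = 3 each), a difference of -0.08 that did not pass (limma adjusted p = 0.117). ZNF207, a spindle assembly factor that binds the checkpoint protein BUB3, averaged 1121 ± 70.8 on arrays labelled PSMA and 1105 ± 12.5 on arrays labelled control (SD, n = 3 each). Its difference was 0.02 (limma adjusted p = 0.778), and -0.03 without PSMA replicate 4. ZNF146, a protein made almost wholly of zinc fingers, fell by 0.25, with 1380.1, 1332 and 1330.4 on arrays labelled PSMA, against 1602, 1646 and 1545 on arrays labelled control (limma adjusted p = 0.00126). Its groups did not overlap.

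ZNF32 had the largest increase of the tested members. This short C2H2 protein read 177, 159 and 170.2 on arrays labelled PSMA, against 48.3, 55.7 and 52.3 on arrays labelled control. All 3 arrays of the first group lay well above those of the second, of which 1 alone was above the filter level. ZNF32 thus passed the filter mainly through the arrays labelled PSMA, and the filter favoured a gene higher on them. The difference was 1.70 (SE 0.06), or 3.24-fold (limma adjusted p = 1.7e-07). It rests on 1 probe set.

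ZNF217, an oncogene of chromosome 20 amplified in breast cancer and a partner of CtBP and CoREST corepressors, rose 1.69-fold. It read 811, 818 and 865 on arrays labelled PSMA, against 527, 520.4 and 434 on arrays labelled control (difference 0.76, SE 0.08, limma adjusted p = 4.3e-05). ZNF23, a KRAB gene of chromosome 16, read 159, 142 and 169 on arrays labelled PSMA, against 93.4, 95.4 and 91.9 on arrays labelled control and rose 1.67-fold (limma adjusted p = 1.7e-05). Neither gene had an array of one group inside the range of the other. ZNF281, a transcription factor tied to pluripotency and to the epithelial-mesenchymal switch, averaged 464 ± 12.5 on arrays labelled PSMA and 324 ± 14.2 on arrays labelled control (SD, n = 3 each; difference 0.52). ZNF672 rose by 0.62, ZNF12 by 0.53 and ZNF26 by 0.39. ZNF24, a SCAN-domain protein known as a repressor of the angiogenic factor VEGF, rose by 0.38, and its second passing probe set by 0.34. All of these passed the limma threshold with no overlap of groups, which was a condition for naming them. Below them, the higher members ran down from ZNF395 at 0.36 and ZNF236 at 0.34 to ZNF813 at 0.15.

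**Figure D2:**
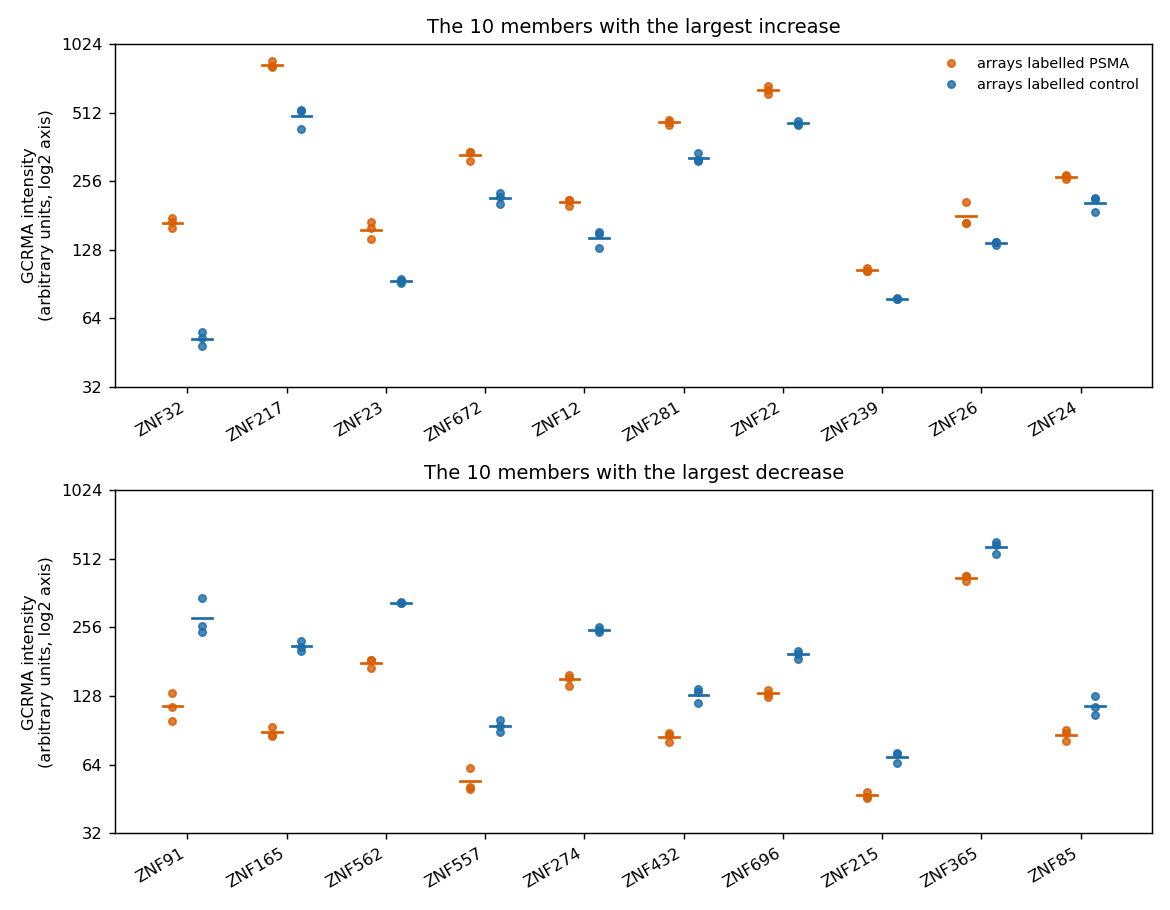
GCRMA intensity (arbitrary units, log2 axis) on each array for the 10 members with the largest increase (top) and the 10 with the largest decrease (bottom), arrays labelled PSMA in orange on the left and arrays labelled control in blue on the right, with bars at the group means. In all 20 genes the 3 arrays of one group lie apart from the 3 of the other, as their selection required. ZNF32 averages 169 on arrays labelled PSMA and 52.1 on arrays labelled control, and ZNF91 averages 115 and 283 on the same arrays.

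The largest decrease was that of ZNF91, a KRAB zinc finger protein of chromosome 19 that binds and silences SVA retrotransposons. It read 132, 99.1 and 115 on arrays labelled PSMA, against 244, 346 and 259 on arrays labelled control. The groups did not overlap, although 1 array labelled control stood well above the other 2. The difference was -1.29 (SE 0.14), 2.44-fold lower (limma adjusted p = 6.7e-05), and it lay between -1.39 and -1.14 when any 1 array was left out. ZNF85, another KRAB gene of the same cluster, fell by 0.42, measured on a probe set of a type that can also bind related transcripts.

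ZNF165, a SCAN-domain gene known as a cancer-testis antigen, read 86.0, 93.9 and 86.7 on arrays labelled PSMA, against 209, 222 and 202 on arrays labelled control. It was 2.38-fold lower (difference -1.25, SE 0.05, limma adjusted p = 4.0e-07), with narrow groups far apart. ZNF562 averaged 179.7 ± 8.42 on arrays labelled PSMA and 329 ± 1.98 on arrays labelled control (SD, n = 3 each), 1.83-fold lower. ZNF557 was 1.75-fold lower, at 51.2, 49.9 and 61.9 on arrays labelled PSMA against 88.7, 101 and 94.9 on arrays labelled control. Of its PSMA arrays 2 were below the filter level.

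ZNF274 binds the 3′ ends of many other zinc finger genes and brings SETDB1 to them. It read 154, 159 and 141 on arrays labelled PSMA, against 250.1, 244 and 257 on arrays labelled control. It was 1.66-fold lower without overlap (difference -0.73, SE 0.05, limma adjusted p = 7.1e-06). ZNF432 fell by 0.61, ZNF696 by 0.57 and ZNF365, a protein of DNA repair and the centrosome, by 0.45. ZNF215, an imprinted gene of chromosome 11, fell by 0.57, at 48.7, 46.2 and 45.7 on arrays labelled PSMA against 71.6, 64.9 and 71.9 on arrays labelled control. It passed the filter through the control arrays alone, so that a difference was built into its passing. Beyond these, the lower members ran from ZNF394 at -0.39 and ZNF212 at -0.38 to ZNF7 at -0.17.

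Of the 122 members, 18 had 2 or more passing probe sets. Their differences had the same sign in 15 of the 18, and 0 had probe sets called in both directions. ZNF22 had 2 probe sets at 0.49 and 0.53, and ZNF337 had 2 at 0.29 and 0.50. ZNF318, known in mice for its part in the choice between IgM and IgD transcripts, rose by 0.32 on its brighter probe set and stood at 0.01 on the other. ZNF142 stood at 0.00 on its brighter probe set, and the other was lower by 0.29. For 17 tested members the probe set was of the type that may cross-hybridise with related sequences.

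The filter left out 90 members. Their brightest probe sets had mean intensities of 4.77 to 50.7, with a median of 15.4. In a fit that kept every gene, 13 of the 90 were higher and 9 lower. That is 24.4% called, beside 15.4% of the 4928 genes the filter left out, so that among the dim genes the members' share lay above the background, in contrast to the tested members. This difference was not tested either. Of the 13, ZNF154, ZNF157, ZNF234, ZNF334, ZNF407, ZNF682 and ZNF711 read below the 25th percentile of all values (13.0) on every array. With values raised to that percentile their differences were 0. None of the 9 lower members lay wholly below it, and how many of the 4928 genes did was not counted. Just inside the filter lay ZNF688, ZNF862 and ZNF84, with third-highest values of 53.6, 55.7 and 58.0, and just outside it ZNF467, ZNF174 and ZNF136, with 51.0, 50.9 and 48.6.

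The member with the largest difference of all was among those left out, and it is named here because of its value. ZNF415 read 56.7, 49.6 and 47.1 on arrays labelled PSMA, against 5.63, 5.60 and 4.45 on arrays labelled control. The control arrays were near the lowest values of the table (3.76), where a fold depends on how background was removed. It was 9.81-fold as deposited and 3.91-fold when every value below the 25th percentile (13.0) was set to that percentile. The fit without a filter gave a difference of 3.29 (limma adjusted p = 2.2e-06). In the same way ZNF573 read 13.7, 14.5 and 11.7 on arrays labelled PSMA, against 35.1, 34.4 and 37.2 on arrays labelled control, 2.68-fold lower. ZNF606 was 1.95-fold higher (47.1 ± 1.24 on arrays labelled PSMA and 24.2 ± 2.19 on arrays labelled control; SD, n = 3 each) and ZNF667 1.89-fold higher (23.2, 21.3 and 27.6 on arrays labelled PSMA, against 13.0, 13.6 and 11.4 on arrays labelled control).

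Genes of 1 short run on chromosome 10 rose together. ZNF239, ZNF32 and ZNF22 follow each other among the tested genes of that chromosome, with no other tested gene between them. ZNF239, also called MOK2 and known to bind lamins, read 104, 107 and 103 on arrays labelled PSMA, against 78.7, 77.5 and 77.7 on arrays labelled control (difference 0.42, limma adjusted p = 3.0e-05). ZNF22, also called KROX26 and studied in tooth development, read 673, 641 and 615 on arrays labelled PSMA, against 468, 455 and 454 on arrays labelled control (difference 0.49, limma adjusted p = 3.4e-05). In all 3 genes every array labelled PSMA lay above every array labelled control, as the rule that named them required. Their 10 nearest tested genes outside the name rule (5 on each side) had a median of 0.10, from HNRNPF at 0.43 to PTPN20 at -3.31. ZNF248, which lies before these 3 genes in the order of the same chromosome, rose by 0.33. Thus 4 of the 5 members of chromosome 10 were higher and 1, ZNF365, was lower. Of the other 275 tested genes of chromosome 10, 32.4% were higher and 30.9% lower. With up to 10 other genes allowed between neighbours in place of 5, ZNF248, ZNF239, ZNF32 and ZNF22 formed 1 cluster, in which all 4 were higher (median 0.45).

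The promoters of these neighbours are shown to let their sequences be compared, with those of ZNF91 and ZNF274, members that fell. Each is 300 bases, from 250 before to 50 after the gene start in RefSeq on build GRCh38.p14, 5′ to 3′ on the strand of the gene. ZNF239 is at chr10:43574567-43574866 (minus strand), ZNF32 at chr10:43648832-43649131 (minus), ZNF22 at chr10:45000673-45000972 (plus), ZNF91 at chr19:23395422-23395721 (minus) and ZNF274 at chr19:58182811-58183110 (plus). Capitals mark matches on either strand to CCGGAAG (ETS family), GGGCGG (Sp and KLF family), ACTACAA (ZNF143) and CCAAT (NF-Y), and no 2 matches overlap here.
ZNF239: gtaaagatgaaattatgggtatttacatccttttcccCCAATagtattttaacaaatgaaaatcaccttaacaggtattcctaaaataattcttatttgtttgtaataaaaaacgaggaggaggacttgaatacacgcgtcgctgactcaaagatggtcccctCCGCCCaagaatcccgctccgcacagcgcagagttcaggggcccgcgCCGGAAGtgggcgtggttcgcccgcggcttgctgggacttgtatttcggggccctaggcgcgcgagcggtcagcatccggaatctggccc
ZNF32: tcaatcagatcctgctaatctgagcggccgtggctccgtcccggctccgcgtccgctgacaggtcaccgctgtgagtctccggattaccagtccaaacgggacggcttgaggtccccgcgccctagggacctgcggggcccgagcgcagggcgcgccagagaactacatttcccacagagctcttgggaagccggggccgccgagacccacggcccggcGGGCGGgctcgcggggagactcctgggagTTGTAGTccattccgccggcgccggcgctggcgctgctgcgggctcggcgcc
ZNF22: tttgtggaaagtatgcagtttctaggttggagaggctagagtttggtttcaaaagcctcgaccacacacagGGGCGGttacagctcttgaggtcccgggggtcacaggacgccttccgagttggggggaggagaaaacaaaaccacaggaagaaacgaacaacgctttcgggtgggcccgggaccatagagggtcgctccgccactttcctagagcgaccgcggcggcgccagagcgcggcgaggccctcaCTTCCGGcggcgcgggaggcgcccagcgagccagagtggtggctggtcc
ZNF91: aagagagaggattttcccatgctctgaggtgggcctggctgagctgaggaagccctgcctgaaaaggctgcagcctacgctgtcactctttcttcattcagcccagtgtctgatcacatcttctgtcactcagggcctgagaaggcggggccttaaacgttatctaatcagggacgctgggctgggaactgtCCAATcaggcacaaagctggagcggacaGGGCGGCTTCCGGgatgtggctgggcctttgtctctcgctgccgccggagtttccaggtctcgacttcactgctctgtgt
ZNF274: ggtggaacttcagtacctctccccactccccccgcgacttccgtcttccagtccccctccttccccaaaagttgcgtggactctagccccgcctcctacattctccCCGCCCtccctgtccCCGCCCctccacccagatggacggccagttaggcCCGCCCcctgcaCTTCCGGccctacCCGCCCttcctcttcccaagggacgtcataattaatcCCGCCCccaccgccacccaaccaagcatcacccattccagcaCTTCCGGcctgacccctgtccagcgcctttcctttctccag
The ETS letters are in ZNF239, ZNF22, ZNF91 and ZNF274 and not in the ZNF32 window, which holds the ZNF143 letters instead. All 5 windows hold the Sp and KLF letters, with 5 copies in ZNF274. The chromosome 10 neighbours thus share only those letters, and ZNF91 and ZNF274 hold them too.

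A promoter sequence was available for 105 of the 122 members. The ETS letters were in 48 of the 105 (45.7%), beside 20.7% of 5931 tested genes and 14.2% of 15843 protein-coding genes. They were in 12 of 30 members that were higher, 15 of 27 that were lower and 21 of 48 that did not pass. The Sp and KLF letters were in 64.8% of member promoters, beside 72.6% of tested genes, the CCAAT letters in 43.8% beside 38.2%, and the ZNF143 letters in 8.57% beside 4.10%. These are matches of letters, not sites of binding.

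The larger clusters differed in how far their members moved together. A cluster was a run of ZNF-named genes with at most 5 other protein-coding genes between neighbours and 4 or more tested members, which gave 5 clusters with 34 tested members. The largest, ZNF264 to ZNF446 on chromosome 19, held 14 tested members, of which 4 were higher, 3 were lower and 7 did not pass. They ran from -0.73 for ZNF274 to 0.29 for ZNF586, with a median of 0.06, which was -0.00 without PSMA replicate 4 and 0.11 without PSMA replicate 5. The cluster ZNF577 to ZNF331 on chromosome 19 held 8, of which ZNF665 (0.28) and ZNF813 (0.15) were higher, ZNF432 (-0.61) was lower and 5 lay between -0.09 and 0.06 without passing. ZNF415 belongs to the same run. Of the 7 members of that run that the filter left out, 2 were higher, 1 was lower and 4 did not pass in the fit without a filter.

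The other 3 clusters held 4 tested members each. In ZNF101 to ZNF254 on chromosome 19, ZNF91 and ZNF85 were lower, and ZNF430 (-0.22) and ZNF14 (-0.01) did not pass. All 4 differences were below 0, with a median of -0.32 that was -0.20 without PSMA replicate 6. The filter left out 10 members of that cluster, of which ZNF682 was higher (0.25), ZNF43 (-0.70), ZNF675 (-0.62) and ZNF253 (-0.54) were lower and 6 did not pass in the fit without a filter. Like ZNF85, the tested ZNF430 and the left-out ZNF43, ZNF675 and ZNF253 were measured on probe sets that can also bind related transcripts. So were the left-out ZNF93 (0.01) and ZNF492 (0.10), which were above 0 and did not pass. In all, 7 of the 10 left-out members were above 0, and over tested and left-out members together the median was -0.00080. Among the 7, ZNF257, ZNF493, ZNF506 and ZNF682 read below the 25th percentile of all values (13.0) on every array. With values raised to that percentile their differences were 0, so this median rests in part on values near the floor. In ZNF786 to ZNF775 on chromosome 7, ZNF212 (-0.38) and ZNF282 (-0.29) were lower, and ZNF783 (-0.16) and ZNF862 (0.06) did not pass. The other passing probe set of ZNF783 was lower (-0.41). That probe set read 49.6, 45.6 and 43.1 on arrays labelled PSMA, below the filter level, so it passed through the control arrays alone. ZNF467, which the filter left out, was lower (-0.52) in the fit without a filter. The 2 tested genes with other names within this run, ATP6V0E2 and REPIN1, had a median of -0.68. In ZNF48 to ZNF689 on chromosome 16, ZNF771 was higher (0.18), ZNF764 was lower (-0.29) and the other 2 did not pass.

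**Figure D3:**
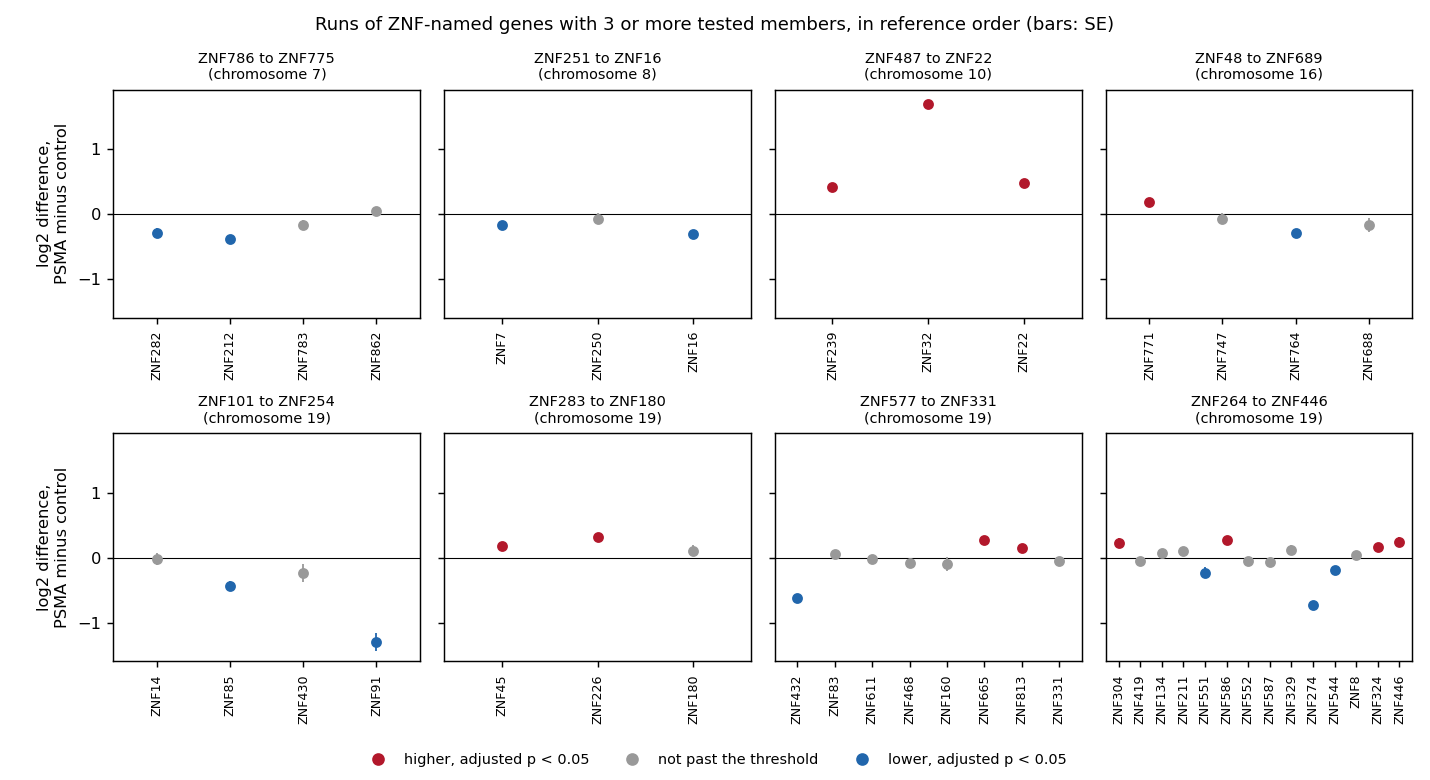
Log2 difference (arrays labelled PSMA minus arrays labelled control) of each tested member in the 8 runs of ZNF-named genes with 3 or more tested members, in reference order from left to right, with SE bars from limma, n = 3 arrays per group. The run ZNF487 to ZNF22 on chromosome 10 is higher in all 3 members, while ZNF264 to ZNF446 holds called members on both sides of 0.

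With runs of 2 or more tested members counted, there were 17 runs with 61 members. All differences were on one side of 0 in 7 of the 17. Of the 11 runs with 2 or more called members, 6 had them all in one direction and 5 in both. The 6 were ZNF672 and ZNF692 on chromosome 1, ZNF45 and ZNF226 on chromosome 19 and the chromosome 10 run, all higher, with ZNF212 and ZNF282 on chromosome 7, ZNF7 and ZNF16 on chromosome 8, and ZNF91 and ZNF85 on chromosome 19, all lower. How often runs of other genes share a direction was not counted, so the 6 of 11 has no background beside it. Of the other tested genes of chromosome 1, 37.7% were higher and 30.2% lower. On chromosome 7 these shares were 25.6% and 38.7%, and on chromosome 8 24.7% and 43.9%. On chromosome 19 as a whole 11 members were higher, 12 lower and 22 not past the threshold, with a median of -0.02. That is 51.1% called, beside 46.4% of the other 377 tested genes of that chromosome, with 24.4% higher beside 15.1% and 26.7% lower beside 31.3%. The median of those other genes was -0.04.

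The genes around a member were summarised by the median difference of its nearest tested genes outside the name rule, up to 5 on each side, with other zinc finger names such as ZNF33B included. Most members had 10 such neighbours, and 17 near the end of a chromosome had 5 to 9. This median was on the same side of 0 as the member in 44 of 65 called members, in 14 of 32 higher and 30 of 33 lower members. It was below 0 for 93 of all 122 members, among them 45 of the 57 that did not pass, so that the count for lower members stands against a median that was mostly below 0. Across the 122 members Pearson's r between a member and its neighbours' median was 0.40 and Spearman's rho 0.41, a description over genes that share the same 6 arrays and often the same neighbours.

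Among the members named above, several that rose lay in raised surroundings. The neighbours' median was 0.49 around ZNF24, 0.46 around ZNF217, 0.32 around ZNF23 and 0.30 around ZNF281. On chromosome 20 the median of the other 206 tested genes was 0.31. Around ZNF32 it was 0.10, around ZNF12 -0.00 and around ZNF672, which had 5 neighbours, -0.06. Of members that fell, ZNF165 and ZNF215 had neighbours' medians of -0.30 and -0.34, and ZNF91, ZNF562 and ZNF557 of -0.02, -0.02 and 0.10. Copy number was not measured, and its part in these values was not tested.

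**Figure D4:**
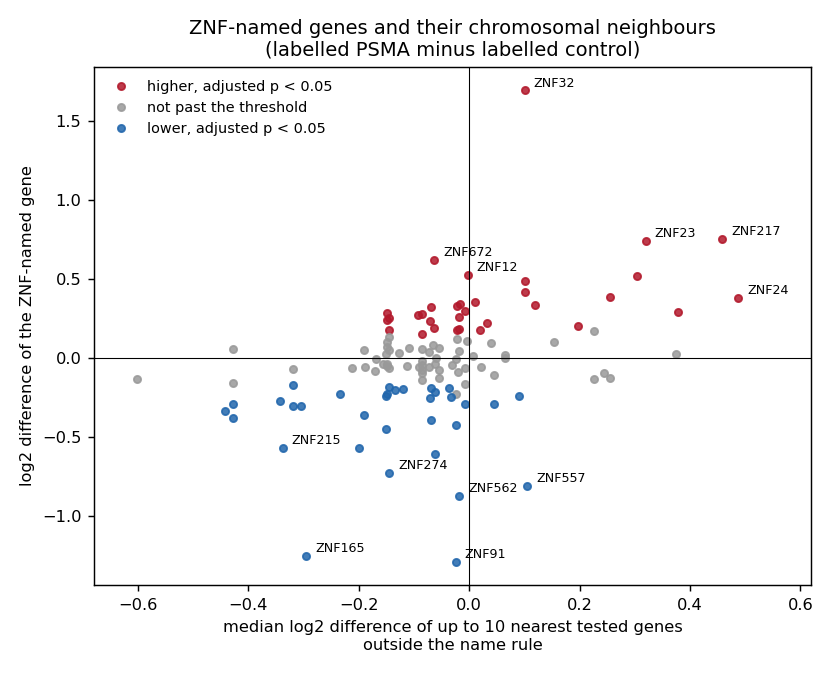
Log2 difference of each of the 122 tested ZNF-named genes (y axis) against the median log2 difference of its nearest tested genes outside the name rule, up to 5 on each side (x axis), each the level on arrays labelled PSMA minus that on arrays labelled control. ZNF217 and ZNF24 lie far to the right at 0.46 and 0.49, while ZNF32, ZNF91, ZNF562 and ZNF557 lie within about 0.1 of the vertical zero line.

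Some ZNF-named genes encode proteins that do not act as KRAB repressors, and those given here were chosen after their values were seen. ZNF185, a LIM-domain protein of the actin cytoskeleton, fell by 0.36, averaging 785 ± 18.0 on arrays labelled PSMA and 1010.5 ± 39.6 on arrays labelled control (SD, n = 3 each). ZNF593, which takes part in ribosome assembly, fell by 0.23. ZNF395, a factor studied in hypoxia, rose by 0.36. ZNF143, an activator bound at many promoters, and its paralog ZNF76 stood at -0.13 and -0.04, and neither passed. The SUMO ligase ZNF451 (-0.08), the nucleolar protein ZNF330 (-0.05) and the transcription factor ZNF148 (0.08) did not pass either.

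Genes that KRAB zinc fingers rely on for silencing differed in both directions. Of 23 listed corepressor genes 17 were tested, of which 1 was higher, 5 were lower and 11 did not pass, which is 35.3% called beside 63.6% of all tested genes. TRIM28 read 816 ± 20.3 on arrays labelled PSMA and 767 ± 33.3 on arrays labelled control (SD, n = 3 each), a difference of 0.09 that did not pass (limma adjusted p = 0.129). SETDB1, the histone H3 lysine methyltransferase it recruits, stood at -0.02. ATF7IP, which stabilises SETDB1, fell by 0.50, with 202 ± 9.71 on arrays labelled PSMA and 285 ± 5.51 on arrays labelled control (SD, n = 3 each; limma adjusted p = 3.5e-05). MTA1, a subunit of the NuRD remodelling complex, rose by 0.45. The subunits GATAD2A, MTA2 and MBD3 of that complex fell by 0.26, 0.26 and 0.21. CBX5, which encodes heterochromatin protein HP1 alpha, fell by 0.22. The median was -0.02.

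Of 16 listed silencing partners 12 were tested, with 3 higher, 3 lower and 6 not past the threshold. That is 50% called, beside 63.6% of all tested genes, with 25% each way beside 30.1% higher and 33.5% lower. ADNP, a zinc finger homeodomain protein of heterochromatin, read 1218, 1198 and 1229.8 on arrays labelled PSMA, against 883, 855 and 820.2 on arrays labelled control, and rose by 0.51. It lies on chromosome 20, where the other tested genes had a median of 0.31. The DNA methyltransferase DNMT3A rose by 0.44 and the methyltransferase EHMT2 by 0.13. MORC2, an ATPase that works with the HUSH complex, fell by 0.26, SUV39H1 by 0.19 and the histone chaperone DAXX by 0.17.

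**Figure D5:**
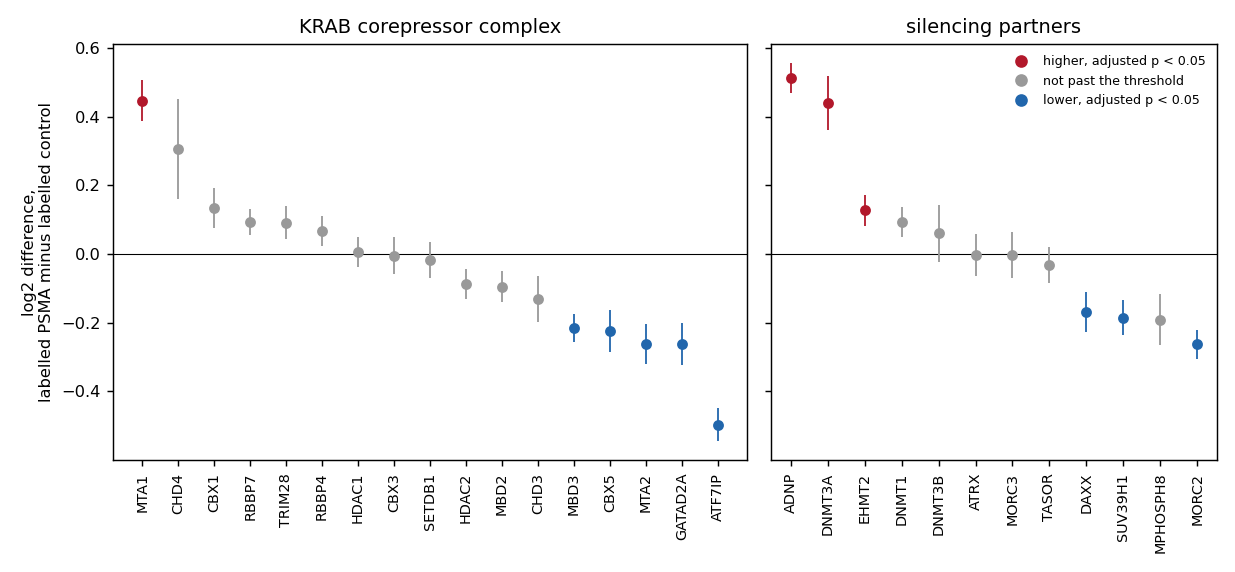
Log2 difference (arrays labelled PSMA minus arrays labelled control) of the tested genes of the KRAB corepressor complex (left) and of silencing partners (right), with SE bars from limma, n = 3 arrays per group. MTA1, ADNP and DNMT3A lie highest at 0.45, 0.51 and 0.44, ATF7IP lowest at -0.50, and TRIM28 and SETDB1 near 0.

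Zinc finger genes with other family names also differed in both directions. Of 34 tested genes named ZBTB, ZSCAN, ZKSCAN, ZFP, KLF or SP, 8 were higher, 10 were lower and 16 did not pass (52.9% called, beside 53.3% of the ZNF-named genes and 63.6% of all tested genes; median -0.04). ZBTB1 and ZBTB25 rose 2.08-fold and 1.98-fold, and both lie on chromosome 14. ZBTB38, which binds methylated DNA, fell by 0.50 and ZBTB11 by 0.32. ZSCAN16 and ZSCAN31 fell by 0.79 and 0.61, and both are among the 10 nearest tested genes of ZNF165. KLF5, an epithelial proliferation factor, rose by 0.63 and KLF10 by 0.19, while KLF4 fell by 0.42 and KLF6 by 0.39. ZFP64 rose by 0.29, and ZFP36, which despite its name is an RNA-binding protein that speeds mRNA decay, fell by 0.57. None of the 3 ZKSCAN and 2 SP genes passed, with ZKSCAN1 at -0.04 and SP3 at -0.05.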

How the data were processed

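Per the submitters' processing notes, the authors made the deposited intensity values with GCRMA, a method that subtracts a background predicted from probe sequence, brings the arrays to a common distribution and gives 1 value per probe set. Its version, any later step and the scale are not given in the sources used here. With a lowest value of 3.76, a highest of 17455 and array medians of 51.7 to 52.9, values were taken as linear.

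The table held 22277 probe sets, 62 of them controls. Of the rest 19064 had 1 gene symbol, 1043 several and 2108 none here. Of the probe sets with several symbols 13 named a ZNF gene, and they were not used. Symbols were checked against RefSeq (assembly GRCh38.p14) by gene ID, which found 19058 and changed 0. Values were log2-transformed with no pseudocount. Each gene was represented by its brightest passing single-gene probe set. Differences were fitted over all 7035 genes with limma 3.58.1 in R 4.3.3 (lmFit, eBayes) and adjusted by the Benjamini-Hochberg method, two-sided. The fit was tested on simulated data. Summaries used pandas 2.3.3 and numpy 2.4.6, and plots used matplotlib 3.10.9, all under Python 3.11.15. The number of arrays, 3 per group, limits the precision.

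The members and lists were chosen with earlier results of these data known. The rule named, among members that passed with no overlap, the 10 highest and the 10 lowest differences, the 3 brightest, the highest and lowest of each cluster, and in each other list or family up to 2 increases and 2 decreases, or the brightest where none passed. Other genes were named after their values were seen. Motif letters, runs with under 4 tested members and the setting without cross-hybridising probe sets were also chosen after the data were seen. Clusters and neighbours use only the order of genes in RefSeq. Counts by zinc finger number and KRAB box had been planned and were not run, since no protein sequences were used here.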

Additional observations from a re-analysis of the deposited data

How the results depend on the processing

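No paired analysis was possible because the groups share no replicate numbers. Under the settings tried, 246 of 271 recomputed counts and medians stayed close to their values, and of 365 recomputed differences of named genes 346 kept their direction and side of the threshold. With treat against 1.5-fold, 1 member was higher and 3 lower, beside 7.48% of all tested genes called. Under it 4 called members lay on the side of their neighbours. The repressor lists then had 0 higher and 0 lower, and the other families 2 higher and 0 lower. The 17 named differences that lost their call did so under treat, which asks for a larger change by its construction. ZNF706 passed with limma's trend and robust options (adjusted p = 0.0326). With no filter on low values, 5 members passed at 2-fold or more, with no share of all genes at that size beside them. The members' median was then -0.0038, there were 10 clusters and the median of ZNF101 to ZNF254 was -0.00080. With values above the median on all 6 arrays, the members' median was -0.013, there were 3 clusters and ZNF48 to ZNF689 had a median of 0.060. The second brightest probe set gave a median of -0.33 for ZNF786 to ZNF775. Quantile normalization gave medians of -0.0048 for the members, -0.0055 for ZNF577 to ZNF331 and 0.092 for ZNF264 to ZNF446. It gave 7 higher repressor genes, against 4, with 63.6% of all tested genes called. The cluster ZNF264 to ZNF446 became ZNF264 to ZNF8 (12 tested members) with at most 2 other genes between neighbours. Allowing up to 10 made it ZNF787 to ZNF446 (16 tested members), and each median was 0.0052. Where no construction of the setting explains these moves, the cause was not tested. With 1 array left out at a time, 25 to 32 members were higher, 29 to 34 were lower and 3 passed at 2-fold or more. In these fits 56.8% to 63.1% of all tested genes were called. The median then ran from -0.0021 to 0.11 in ZNF264 to ZNF446 from -0.058 to 0.0083 in ZNF577 to ZNF331 and from -0.40 to -0.20 in ZNF101 to ZNF254, and over all members from -0.040 to -0.017. ZNF207 ran from -0.031, without PSMA replicate 4, to 0.057. Without the probe sets that may cross-hybridise, 29 were higher and 30 lower, with no share of all tested genes beside these counts. The filter on dim values left 90 of 212 members untested.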
